A study of Caenorhabditis elegans with 2 samples.

Results

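The genes examined are the 294 nuclear genes of Caenorhabditis elegans that the Ensembl annotation of WBcel235 classes as lincRNA (194) or antisense RNA (100), of 46890 nuclear genes in all. Each was taken with a window from 1000 bp upstream of its 5' end to its 3' end, and was marked where the summit of a ZFH-2::GFP peak lay in that window. The peaks come from chromatin immunoprecipitation sequencing (ChIP-seq) with an antibody against GFP. The only group was strain RW12167, in which CRISPR placed GFP and a loxP-flanked unc-119(+) marker at the endogenous zfh-2 gene in an unc-119(tm4063) background. Whole worms were taken as young adults of 64.5 hours, after synchronisation by bleaching and starvation as first-stage larvae, in 2 biological replicates. Both replicates carry the same fusion and marker, no control library was analysed here, and a whole worm does not show in which cells a peak arose. Read counts are not part of the lists, which leaves the depth unknown. The peak signal used below is the authors' value, and its scale is not stated in the labels.

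A long intergenic non-coding RNA (lincRNA) is a long transcript without a protein-coding frame, made from sequence between protein-coding genes. An antisense RNA is made from the strand opposite to another gene, so its DNA is shared with that gene. Some such RNAs act on gene expression and others have no known role; in C. elegans the lincRNA lep-5 is known for a role in the timing of sexual maturation of the nervous system and tail. ZFH-2 is a zinc finger homeodomain protein, a kind of transcription factor that binds DNA and sets the activity of nearby genes. RNA was not measured, so the 2 classes rest on the annotation alone. In that annotation 92 of the 100 antisense RNA genes overlapped a protein-coding gene on the opposite strand, and 42 of the 194 lincRNA genes overlapped a protein-coding gene on either strand.

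The 8 stretches printed here are the reference DNA under the strongest summit of each of 8 genes found in both replicates' own lists, and they show what kind of sequence the peaks sit on. They are taken in order of signal, except that anr-20, F48C1.15 and linc-91, whose signals were above that of anr-36, are described in the text without sequence. Each is the WBcel235 sequence (RefSeq's copy of the genome) of the summit and the 50 bases either side of it, written 5' to 3' on the strand of the RNA gene, and the capitals are the 11 bases around the summit. The stretch of linc-128 is chrV:1151451-1151551 on the plus strand, inside its single exon. That of linc-90 is chrIII:354849-354949 on the plus strand, in an intron of linc-90. That of linc-54 is chrX:14506131-14506231 on the minus strand, upstream of the gene. That of anr-36 is chrV:7854772-7854872 on the minus strand, in its exon. That of K07C10.8 is chrII:11167287-11167387 on the plus strand, in an intron. That of linc-27 is chrII:6370286-6370386 on the minus strand, that of linc-129 is chrIII:10817132-10817232 on the plus strand and that of linc-48 is chrX:17420888-17420988 on the plus strand, all 3 upstream of the gene.
linc-128: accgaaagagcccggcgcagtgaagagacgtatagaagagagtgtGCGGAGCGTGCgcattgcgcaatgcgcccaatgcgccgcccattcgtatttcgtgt
linc-90: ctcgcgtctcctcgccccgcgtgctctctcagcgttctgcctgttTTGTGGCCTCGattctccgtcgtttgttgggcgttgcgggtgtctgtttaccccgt
linc-54: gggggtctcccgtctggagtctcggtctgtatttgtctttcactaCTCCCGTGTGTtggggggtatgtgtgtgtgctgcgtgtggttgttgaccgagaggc
anr-36: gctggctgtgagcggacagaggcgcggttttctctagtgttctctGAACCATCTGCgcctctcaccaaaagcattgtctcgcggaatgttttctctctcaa
K07C10.8: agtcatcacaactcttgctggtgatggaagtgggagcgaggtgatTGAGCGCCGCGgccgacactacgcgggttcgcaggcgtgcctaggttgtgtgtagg
linc-27: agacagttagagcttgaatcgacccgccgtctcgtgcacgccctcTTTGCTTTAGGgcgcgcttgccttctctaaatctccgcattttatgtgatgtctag
linc-129: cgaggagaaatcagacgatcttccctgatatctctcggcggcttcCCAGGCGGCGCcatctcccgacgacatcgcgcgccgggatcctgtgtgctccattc
linc-48: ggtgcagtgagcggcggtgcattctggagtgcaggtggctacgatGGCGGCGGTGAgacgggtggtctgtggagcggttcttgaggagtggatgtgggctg
The GC content of these 8 stretches ran between 51.5% in linc-27 and 64.4% in linc-48, against 35.4% in the nuclear genome.

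The first question was how many of these RNA genes held a peak, and whether their share stood apart from that of other genes. The main list was the conservative one, which the authors drew from the pair of replicates at an irreproducible discovery rate (IDR) of 0.01 or less, where a low IDR means that a peak ranks alike in the lists compared. It held 7085 nuclear summits. Of the 294 RNA genes, 46 had a summit in their window, which is 15.6% (95% Wilson interval 11.9 to 20.2%), beside 12.3% over all nuclear genes. The lincRNA genes had 31 of 194 (16.0%, 11.5 to 21.8%) and the antisense RNA genes 15 of 100 (15%, 9.31 to 23.3%). These intervals cover counting of genes only, and they overlap almost wholly.

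Among the genes not of these 2 classes, 12.3% (5737 of 46596) were marked. That figure holds 15363 short piRNA genes, and without them, a choice made after seeing the data, it was 18.0%. By annotation class the share was 19.5% of 19973 protein-coding genes, 16% of 7764 ncRNA genes and 8.13% of 2128 pseudogenes. The share of the lincRNA and antisense RNA genes therefore lay between the 2 figures for other genes, close to that of ncRNA genes, and the order against other genes turned on whether the piRNA genes were counted. Windows differ in length between classes, and per megabase of window the RNA genes had 104.5 summits (101.3 for lincRNA and 111.5 for antisense RNA), against 76.2 for all other nuclear genes, 78.4 for protein-coding genes, 142.3 for ncRNA genes and 37.9 for pseudogenes.

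**Figure D1:**
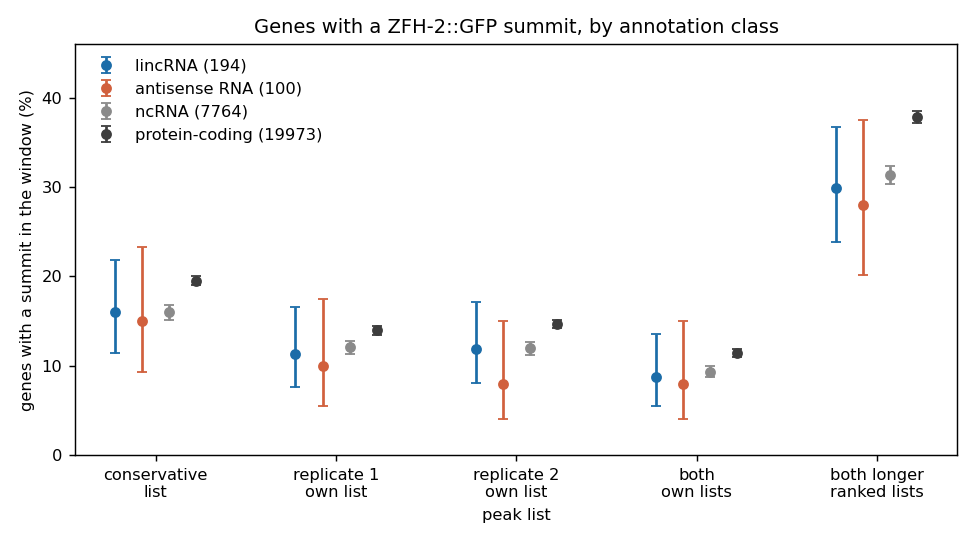
Share of genes with a summit in the window (vertical axis, %) in 5 peak lists or pairs of lists (horizontal axis), for lincRNA, antisense RNA, ncRNA and protein-coding genes; points are shares and bars are 95% Wilson intervals. In the conservative list the lincRNA and antisense RNA points stand at 16.0 and 15% and their intervals overlap each other in every list.

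Each replicate also has a thresholded list of its own, so a mark can be looked for in the 2 replicates separately. Replicate 1's own list marked 32 of the 294 genes (10.9%, beside 8.9% of all nuclear genes) and replicate 2's marked 31 (10.5%, beside 9.2%). Both own lists marked 25 genes (8.5%, interval 5.83 to 12.3%, beside 7.09% of all nuclear genes), 17 of them lincRNA and 8 antisense RNA genes. At least 1 own list marked 38 genes (12.9%, beside 11%). Other genes without the piRNA genes stood above the RNA genes in each of these counts. Their shares were 13.1% in replicate 1's own list, 13.5% in replicate 2's, 10.4% in both and 16.1% in at least 1. Of the 46 genes of the conservative list, those 25 were in both own lists, 5 in replicate 1's only, 3 in replicate 2's only and 13 in neither. The other marked nuclear genes were not split in this way, so the split cannot be called particular to the RNA genes.

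The longer ranked lists keep weak peaks that did not reach the threshold. Replicate 1's ranked list marked 98 of the 294 genes (33.3%, beside 27.3% of all nuclear genes), replicate 2's marked 97 (33.0%, beside 28.4%) and both marked 86 (29.3%, beside 24.3%). All 46 genes of the conservative list had a summit in both ranked lists. The ranked list that holds the conservative list marked 99 genes (33.7%, beside 26.7%). Here too other genes without the piRNA genes stood above the RNA genes. Their shares were 39.3% in replicate 1's ranked list, 41.0% in replicate 2's and 35.3% in both. In the ranked list that holds the conservative list their share was 38.4%. A summit was found in none of the lists for 183 of the 294 genes. This was not counted over all nuclear genes, so it cannot be called particular to the RNA genes.

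The authors' peak signal was higher in marked genes that recurred in the own lists. Those lists are thresholded and come from the same 2 libraries, so this is a description and not separate support. The strongest conservative summit of the 25 genes in both own lists had a median signal of 215 (117.4 to 693), that of the 8 genes in 1 own list a median of 114.3 (100.8 to 141.6), and that of the 13 genes in neither a median of 93.9 (72.4 to 117.1). The genes in both own lists lay above all 13 genes in neither, though only just at the edge (117.4 against 117.1). Near the threshold, anr-54 and T13F3.10 were just inside, both at 2.04 for −log10 of the global IDR, where the threshold is 2. Just outside were linc-99 at 1.94, anr-18 at 1.90 and K11D9.5 at 1.86, and of these linc-99 was in replicate 2's own list.

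The 2 strongest peaks lay in lincRNA genes, linc-128 and linc-90, followed by the antisense RNA gene anr-20 described further on. linc-128 (V, 1150906 to 1153207, plus strand) had a summit at 1151501, 595 bp past its 5' end, with a signal of 693, rank 8 of the 7085 nuclear summits of the conservative list. That summit was rank 12 in replicate 1's own list (signal 372.8) and rank 10 in replicate 2's (323.3), so it was among the strongest peaks of each. The summit touched no protein-coding gene, and the nearest protein-coding 5' end, that of the calmodulin gene cmd-1, was 5365 bp from the 5' end of linc-128. A weaker summit of signal 84.9, 403 bp upstream of linc-128, was in neither own list. linc-90 (III, 352222 to 355402, plus strand) had a summit at 354899 with a signal of 575.2, rank 33. It was rank 37 in replicate 1's own list and rank 40 in replicate 2's. This position is also in the promoter window of gei-4, which overlaps linc-90 on the opposite strand, so the peak belongs to the DNA of both genes and cannot be given to one of them. The next lincRNA gene by signal was linc-54 (X, 14505700 to 14505868, minus strand). This gene of 169 bp had a summit 313 bp upstream with a signal of 425.3, rank 130, and rank 142 and rank 131 in the own lists of replicate 1 and replicate 2. No protein-coding gene or promoter window lay there.

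Other lincRNA peaks with no protein-coding gene at the summit were seen in K07C10.8 (II, 11166676 to 11167706), where 1 summit in the intron had a signal of 243.2 (rank 685) and 1 summit 44 bp upstream had 233.7 (rank 776). Both were in both own lists. linc-126 had a summit 319 bp upstream with a signal of 190.4, linc-87 had one in an intron with 175.4, and linc-152 had one in an exon with 129.6, again in both own lists. linc-153 held a summit of 186.2 in its exon and a second, of 75.1, in the promoter window of bir-1, the survivin gene of C. elegans, and the second was in neither own list. linc-18 held a summit of 175.2 in its intron, found in both own lists, and one of 154.6 upstream, inside popl-4, found in replicate 2's own list only.

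A further set of lincRNA summits lay in the promoter window of a neighbouring protein-coding gene, which reached 1000 bp upstream and 200 bp downstream from that gene's 5' end. linc-27 had a summit 459 bp upstream, in the promoter window of lin-23 (an F-box protein of ubiquitin ligases), with a signal of 234.7. linc-129 had 3 summits, of which the strongest, 81 bp upstream with a signal of 221.7, was in the promoter window of sca-1 (the calcium pump of the sarcoplasmic and endoplasmic reticulum), while those of 195.2 and 125.4 lay in the gene and touched no protein-coding gene. linc-58 had one of 215.6 in the promoter window of jph-1 (junctophilin, which holds membranes together in muscle). linc-2 had one of 166.4 in that of pcf-11 (a factor of messenger RNA 3' end formation), and linc-95 one of 117.4 in that of rilp-1. The summits of these 5 genes in promoter windows were in both own lists, apart from a second of linc-58, of 6.5. linc-91 (I, 4699610 to 4702866) had 4 summits: one of 380.7, rank 175, 1790 bp inside the gene, one of 217.1 in the promoter window of chd-7 (a chromatin remodeller), and 2 of 89.4 and 74.6 that shared the intervals of the stronger pair and had no own-list summit within 50 bp.

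Inside protein-coding genes, linc-143 (III, 3035541 to 3037543) lies on the same strand within daf-2, the insulin receptor gene, and had a summit 74 bp past its 5' end with a signal of 182.3, rank 1503, in both own lists. The window of linc-48 held a summit of 216.2 in a coding exon of osm-11, which encodes a secreted ligand of Notch signalling in C. elegans, and a second of 25.3 in the same interval. The window of linc-78 held one of 116.8 in a coding exon of rpl-11.2, a ribosomal protein gene, which was in neither own list. In both windows the summits lay far upstream of the lincRNA gene, at 949 bp and 747 bp for linc-48 and at 802 bp for linc-78.

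Among antisense RNA genes the strongest peaks lay within the introns or untranslated parts of the gene on the other strand. anr-20 (I, 9382458 to 9383548, plus strand) had 4 summits, all inside ppfr-1, which encodes a regulatory subunit of protein phosphatase 4. Their signals were 507.1 (rank 72), 485.2 (rank 83), 364 (rank 202) and 15.2 (rank 6965). The strongest pair shared an interval, as did the weaker pair. anr-25, a second antisense RNA gene of ppfr-1, had a summit of 141.6, rank 2563. F48C1.15 (I, 5315917 to 5316885) lies within let-526, a subunit of the SWI/SNF chromatin remodelling complex, and had summits of 423.7 (rank 134) and 223.5 (rank 883). anr-34 had one of 182.1 inside ztf-1, a zinc finger gene. All these genes were in both own lists.

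The other antisense RNA genes in both own lists had their summits in coding exons or promoter windows. Y71G12B.44 had a summit of 215 in a coding exon of Y71G12B.31, and anr-3 had one of 151.3 in a coding exon of ari-1.4, of the ariadne family of ubiquitin ligases. anr-36 (V, 7854250 to 7854959), the only marked antisense RNA gene with no protein-coding gene on the opposite strand, had one of 271.3 in the promoter windows of C37C3.18 and C37C3.9. anr-43 had one of 142.3, 366 bp upstream, in the promoter window and a coding exon of F17C11.4.

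Of the 15 marked antisense RNA genes, 14 had a protein-coding partner on the opposite strand, and 11 of these had a summit inside the partner. In 5 the summit was in a coding exon of the partner, and in 0 was it in the partner's promoter window. The promoter window of the partner was marked for 7 of the 92 antisense RNA genes with a partner (7.61%, interval 3.73 to 14.9%), beside 8.82% of the promoter windows of all protein-coding genes, and 1 of those 7 antisense RNA genes, anr-58, was marked itself. The 3 summits of anr-58 (117.3, 109 and 15.3) lay upstream of it and outside its partner Y50D4A.6, and replicate 1's own list marked it while replicate 2's did not.

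**Figure D2:**
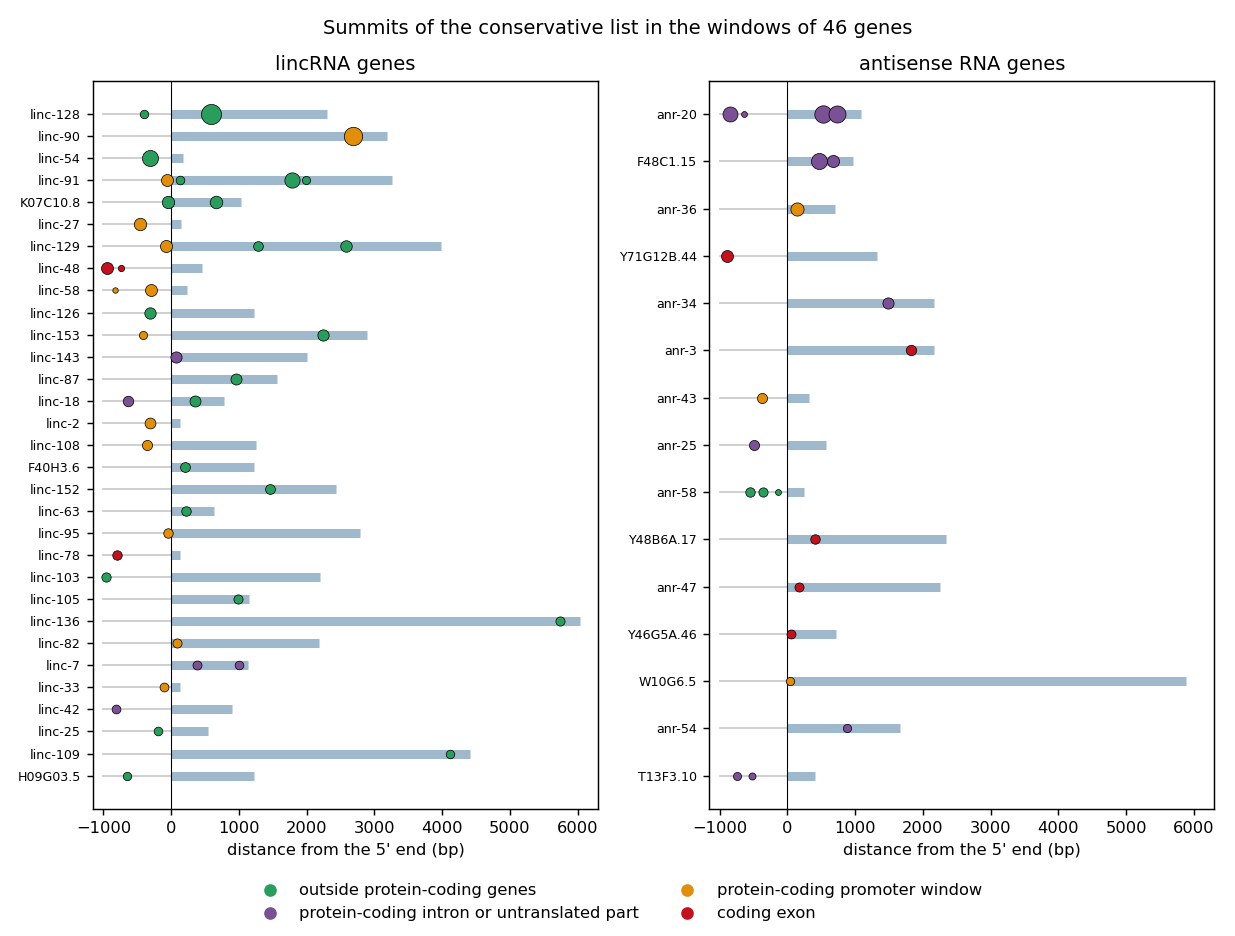
Summits of the conservative list (points, area rising with the authors' peak signal) along the windows of the 31 marked lincRNA genes and the 15 marked antisense RNA genes, with distance from the gene's 5' end in bp on the horizontal axis; the bar is the gene, the thin line the 1000 bp upstream, and the colour says what protein-coding sequence the summit touches. Genes run down by signal, and the positions lie between -959 and 5743 bp.

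The 46 genes held 65 summits, and no summit was counted in 2 of the genes. In 33 genes there was 1 summit, in 9 there were 2, in 2 (linc-129 and anr-58) there were 3 and in 2 (anr-20 and linc-91) there were 4. The summits were upstream only in 19 genes, in the gene only in 20 and in both places in 7. Relative to the 5' end the median position was 43 bp (-959 to 5743 bp), and 31 of the 65 lay within 500 bp of it. In the windows of protein-coding genes, which are longer, the median was 1196 bp over 6755 gene and summit pairs. In the windows of ncRNA genes it was -49 bp over 1468 pairs, so a median near the 5' end was not particular to the RNA genes counted here. Per megabase the upstream 1000 bp of the RNA genes held 108.8 summits and the genes themselves 97.8. The 2 classes went opposite ways, on few summits. lincRNA genes had 113.4 upstream and 88.5 in the gene (22 and 21 summits), and antisense RNA genes 100 and 119.9 (10 and 12). For protein-coding genes these figures were 81.4 and 79.6, and for ncRNA genes 107.4 and 509.9, with a summit counted once per gene.

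What the summits touched differed between the RNA genes and the rest, partly by how the classes are defined, since lincRNA genes are annotated between protein-coding genes. Of the 65 summits 26 (40%) touched no protein-coding gene or promoter window, against 16.6% of the 7020 other nuclear summits. In coding exons there were 8 (12.3%), against 38.1%. Promoter windows of protein-coding genes held 15 (23.1%), against 23.8%, and introns or untranslated parts of protein-coding genes held 16 (24.6%), against 21.5%. These pooled shares hide a difference between the classes. Of the 43 lincRNA summits 23 (53.5%) touched no protein-coding gene or promoter window. Of the 22 antisense RNA summits 3 (13.6%), all of anr-58, did so, which is below the 16.6% of the other nuclear summits. Coding exons held 6.98% of the lincRNA and 22.7% of the antisense RNA summits. Introns or untranslated parts held 11.6 and 50%, and promoter windows 27.9 and 13.6%, in the same order. Counted by gene, 25 of the 46 (18 lincRNA and 7 antisense RNA genes) had no summit in a protein-coding promoter window or coding exon, and 12 of these were among the 25 genes in both own lists. Of the others, 14 had a summit in a protein-coding promoter window and 7 in a coding exon. A stricter count, of genes with all summits outside protein-coding genes and their promoter windows, gave 15 of the 46, 14 of them lincRNA genes and 1 (anr-58) an antisense RNA gene. With at least 1 such summit there were 19, which adds linc-91, linc-129, linc-153 and linc-18. A summit that lies within a protein-coding gene or its promoter window cannot be given to the RNA gene or to the protein-coding gene from these lists.

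The signals of the 65 summits had a median of 129.6, against 119.4 for the other nuclear summits of the list, and 20 of them (30.8%) were in the strongest 20% of the list, against 19.9%. In the replicates' own lists, 14 of 40 summits in these windows (35%) were in the strongest 20% of replicate 1's list and 11 of 42 (26.2%) in that of replicate 2's. All 3 lists, which come from the same 2 libraries, thus placed more than 20% of the RNA genes' summits in their strongest 20%, and the difference was not tested. Some genes gave more than 1 of the 20 strong summits of the conservative list, so these are not independent. anr-20 alone gave those at ranks 72, 83 and 202. The next count was made for the RNA genes' summits only, with no figure for the other nuclear summits beside it. A conservative summit had an own-list summit within 50 bp in both replicates for 29 of the 65 summits, in 24 genes. Over these 29 the own signals had a Spearman rho of 0.771, as a description across summits, which come from 2 libraries and are not independent replicates.

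**Figure D3:**
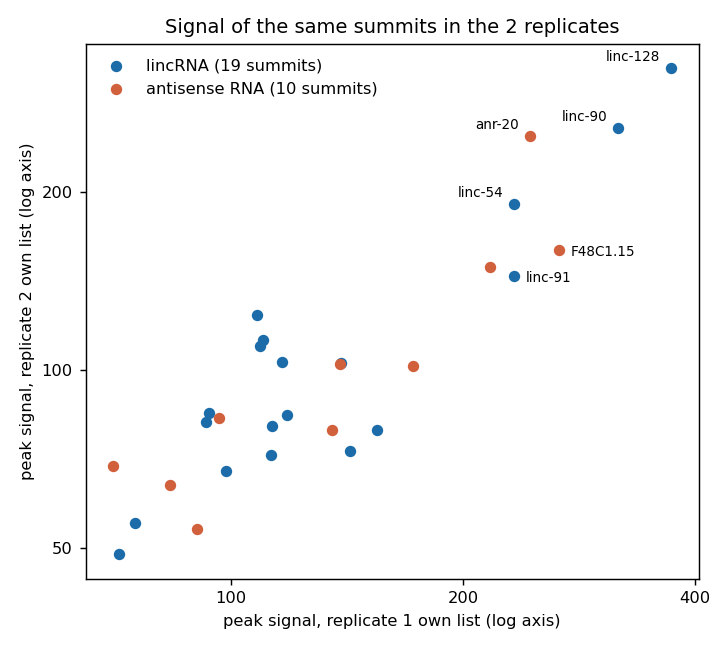
Authors' peak signal in replicate 1's own list (horizontal, log axis) and replicate 2's own list (vertical, log axis) for the 29 conservative summits in windows of lincRNA (19) and antisense RNA (10) genes that have a summit within 50 bp in both own lists. linc-128 and linc-90 stand highest in both replicates.

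Of all 46890 nuclear genes, replicate 1's own list marked 4173 (8.9%), replicate 2's 4312 (9.2%) and both 3326 (7.09%). The lists thus differed outside the RNA genes too. Over all 294 RNA genes, 7 were marked in replicate 1's own list and not in replicate 2's, and 6 the other way round, genes outside the conservative list included. The 3 strongest in replicate 1's list were linc-108 with 93.7 (rank 1736), in the promoter window of the acyl-CoA synthetase gene acs-2, M04F3.7 with 91.6 (rank 1832) and linc-159 with 79.8 (rank 2473). Of these, linc-108 was in the conservative list. The 3 strongest in replicate 2's list were linc-44 with 99.4 (rank 1102), F40H3.6 with 76.2 (rank 2068) and F39E9.10 with 58.1 (rank 3354), and of these F40H3.6 was in the conservative list. The conservative list's strongest genes with no own-list mark were Y48B6A.17 (117.1), linc-78 (116.8), linc-105 (106.5), linc-136 (106.2) and Y46G5A.46 (99.6).

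GC content and length moved with the marks. The highest GC content of any base and the 50 bases either side of it in the window had a median of 61.4% in the 46 marked genes and 52.5% in the 248 others, and the median gene length was 1228 bp in marked and 659 bp in other genes. Their part in which genes were marked was not tested. Among genes in quintile 1 (of 5, the lowest) by that GC content, 0 of 28 RNA genes were marked (up to 12.1% by the Wilson interval), against 0 of 10152 other genes. In quintile 4, 11 of 59 were marked (18.6%, 10.7 to 30.4%), against 987 of 8248 other genes, and in quintile 5, the highest, 32 of 60 (53.3%, 40.9 to 65.4%), against 49.3%. Between them, 1 of 73 was marked in quintile 2 (1.37%, 0.242 to 7.36%), against 0.179%, and 2 of 74 in quintile 3 (2.70%, 0.744 to 9.33%), against 1.92%. In quintiles 3, 4 and 5 the intervals of the RNA genes held the other genes' share, and in quintile 2, on 1 gene, the interval began just above it. In quintile 4 the share of protein-coding genes was 12.6% and that of ncRNA genes 16.0%. In quintile 5 these were 54.0 and 53.3%. By window length the share was 9.09% of 110 RNA genes under 1500 bp, against 6.9% of other genes, 11.0% of 73 between 1500 and 2000 bp, against 13.0%, 18.0% of 61 between 2000 and 3000 bp, against 12.3%, and 34% of 50 over 3000 bp (22.4 to 47.8%), against 25.4%. These other genes include the piRNA genes. In the same length classes, in order, the share of protein-coding genes was 9.98, 14.0, 12.9 and 26.1%. That of ncRNA genes was 15.8, 21.5, 34.6 and 25%, the last 3 on 65, 26 and 16 genes. At the 65 summits themselves GC content averaged 54.0% ± 6.63 (SD over summits), and at the other 7020 it averaged 55.1% ± 7.0.

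**Figure D4:**
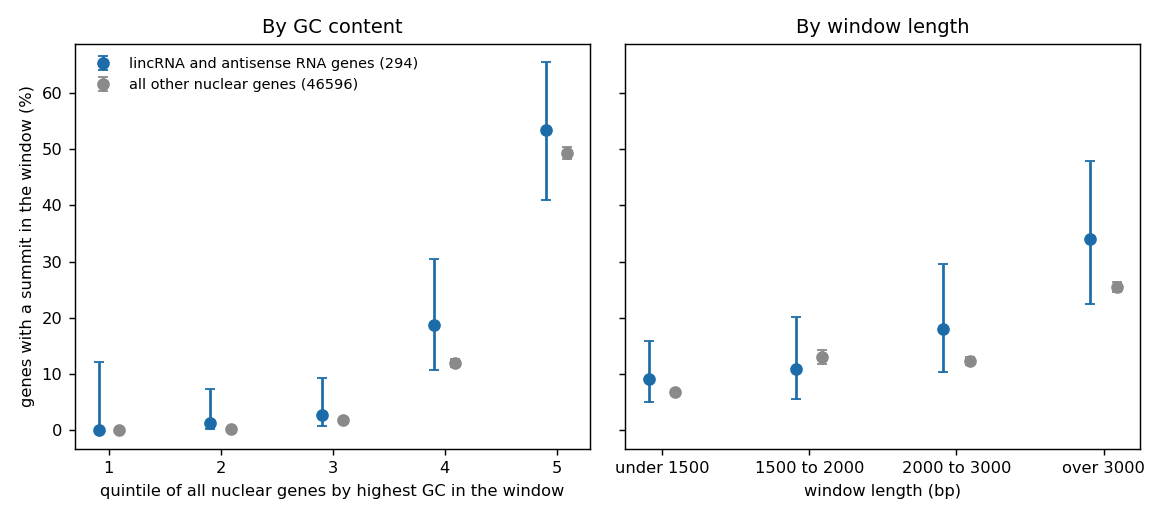
Share of genes with a conservative summit (vertical axis, %) by quintile of highest GC content in the window (left) and by window length (right), for the 294 lincRNA and antisense RNA genes and for all 46596 other nuclear genes; bars are 95% Wilson intervals. By GC content both groups climb together, with 53.3 and 49.3% in quintile 5. By window length the other genes, which include the piRNA genes, do not climb at each step. They stand at 13.0% between 1500 and 2000 bp and at 12.3% between 2000 and 3000 bp.

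The marked genes were spread over all 6 chromosomes. On chromosome III 12 of 39 RNA genes were marked (30.8%, against 22.4% of other genes there), 11 of them lincRNA genes. On chromosome IV 3 of 49 were marked (6.12%, against 4.41% of other genes and 17.2% of protein-coding genes). On V 9 of 67 were marked (13.4%, against 12.3%). On I, II and X the share of the RNA genes was below that of other genes, with 8 of 37 (21.6%, against 23.3%), 7 of 57 (12.3%, against 19.2%) and 7 of 45 (15.6%, against 18.2%).

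Some long RNA genes held nothing. The 5 longest genes with no conservative summit were linc-156 (5725 bp), linc-167 (5651 bp), anr-35 (5527 bp), linc-166 (5143 bp) and linc-110 (5054 bp), and none of the lists, ranked lists included, had a summit in any of them. Their highest GC content ran between 48.5% in linc-166 and 60.4% in linc-167. lep-5 (X, 12652591 to 12653520) also had 0 summits in every list, with a highest GC content of 52.5%. The annotation classes tts-1, a long non-coding RNA linked to lifespan, as ncRNA, so it was not among the genes counted. No summit in a list says only that none was called there, and with unknown depth no limit can be put on weaker binding.

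Short motifs were counted on either strand within 50 bp of each summit. GAGAGAGA, a GA repeat, was at 6 of the 65 summits (9.23%, interval 4.30 to 18.7%), against 3.97% of the other 7020. CAGCTG, an E-box of the kind bound by basic helix-loop-helix factors, was at 7.69%, against 6.18%. CACGTG, another E-box, was at 1.54%, against 3.83%. TAATTA, a core bound by many homeodomain factors, was at 1.54%, against 0.684%. The intervals of the last 3 motifs held the share of the other summits, and that of the GA repeat began just above it. The last 3 motifs read alike on both strands, and none of the 4 contains another. Within 100 bp the GA repeat was at 14 of 65 summits, in 11 genes (21.5%, 13.3 to 33.0%), against 6.77%, and that interval lay further above the share of the other summits. Split by what the summit touched, which was chosen after seeing the data, the share within 100 bp was 5 of 15 (33.3%, 15.2 to 58.3%) against 8.09% in promoter windows of protein-coding genes, 6 of 26 (23.1%, 11.0 to 42.1%) against 14.3% outside protein-coding genes, 3 of 16 (18.8%, 6.59 to 43.0%) against 10.3% in introns and untranslated parts, and 0 of 8 (up to 32.4%) against 0.673% in coding exons. Within 50 bp the same split gave 3 of 15 (20%, 7.05 to 45.2%) against 4.79% in promoter windows, 2 of 26 (7.69%) against 8.58% outside protein-coding genes, 1 of 16 (6.25%) against 5.89% in introns and untranslated parts, and 0 of 8 against 0.374% in coding exons. At that distance the interval in promoter windows was the only one of the 4 that lay above the other summits' share. Coding exons, where the repeat was rarest, held 12.3% of the RNA genes' summits, against 38.1% of the others, and their part in the gap over all summits was not tested.

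**Figure D5:**
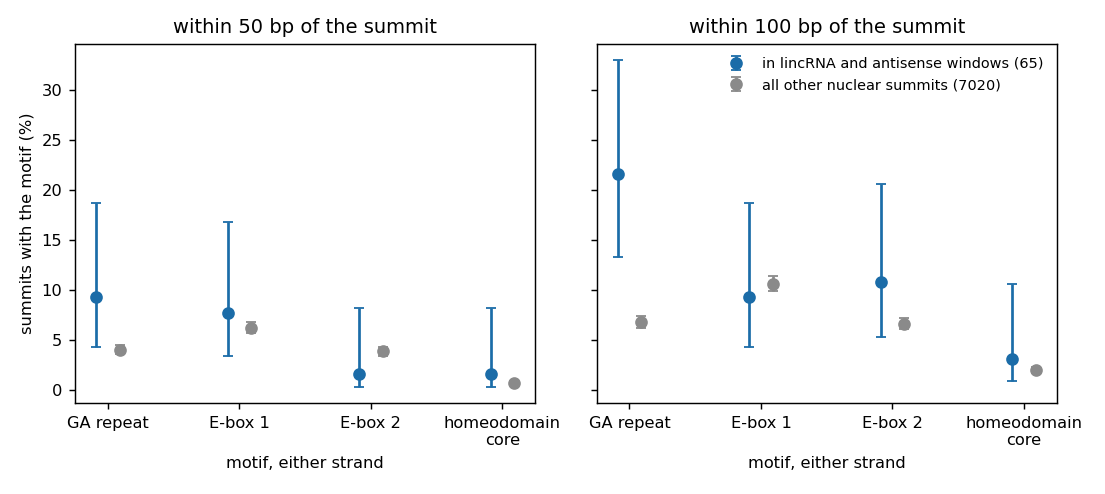
Share of summits with a motif on either strand (vertical axis, %) within 50 bp (left) and 100 bp (right) of the summit, for the 65 summits in lincRNA and antisense RNA windows and the 7020 other nuclear summits; E-box 1 is CAGCTG, E-box 2 is CACGTG, the GA repeat is GAGAGAGA, the homeodomain core is TAATTA, and bars are 95% Wilson intervals. The GA repeat is the only motif whose intervals do not hold the other summits' share, at 9.23 and 3.97% within 50 bp and 21.5 and 6.77% within 100 bp.

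Of the GA repeats within 50 bp of a summit, 3 are printed to show how the repeat lies, which again was chosen after seeing the data. Each is the WBcel235 sequence 50 bases either side of the summit, on the strand of the RNA gene, and the capitals are the GA repeat or its complement. They are chrIII:3037419-3037519 for linc-143, chrIII:12150118-12150218 for linc-87 and chrIII:3635787-3635887 for linc-95, all on the minus strand.
linc-143: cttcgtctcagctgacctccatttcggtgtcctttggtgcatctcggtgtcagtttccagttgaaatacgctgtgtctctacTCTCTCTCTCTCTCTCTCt
linc-87: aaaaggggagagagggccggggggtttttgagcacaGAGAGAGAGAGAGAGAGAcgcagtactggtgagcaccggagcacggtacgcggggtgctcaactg
linc-95: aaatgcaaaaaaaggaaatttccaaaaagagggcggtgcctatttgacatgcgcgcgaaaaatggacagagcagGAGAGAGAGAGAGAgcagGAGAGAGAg
In linc-143 and linc-95 the repeat lies towards one end of the stretch and in linc-87 it spans the summit. The stretch of anr-36 printed earlier also holds the repeat, as its complement, close to its 3' end.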

How the data were processed

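ZFH-2::GFP peaks were called in build ce11 by the authors, per the labels, as thresholded and longer ranked lists for each of the 2 replicates and for both together. No label names the aligner, the peak caller or the control, so these are not given in the sources used. The deposited score runs up to 1000 and follows IDR, and the lowest score of the conservative list, 830, equals an IDR of 0.01. The authors' signal has no stated scale and was used within a list only, to rank peaks. From the deposited ranked lists, −log10 of the global IDR was read too, while 8 further signal columns, 2 in each of these lists, name no sample and were not used.

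A summit was the peak start plus the listed offset. Gene rows came from Ensembl release 115, and sequence from WBcel235, whose chromosome names and lengths fit the lists. Mitochondrial genes (36) and peaks (2 in the conservative list) were left out. Shares carry 95% Wilson intervals. There was only 1 group, so samples were not tested against each other. The functions for windows, summits and positions were tested on simulated summits, and the motif counts were not. Genes named are those in both own lists, the 5 strongest in neither, up to 3 in each replicate's list alone, lep-5 and tts-1, the 5 with the most summits and the 5 longest unmarked; others are named only beside the IDR threshold. The genes, lists and rules were chosen with earlier results of these data known. Alternatives were other lists, windows, peak overlap, merged regions and motif distances. The tools were matplotlib 3.10.9, SciPy 1.17.1, pandas 2.3.3 and NumPy 2.4.6 under Python 3.11.15.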

Additional observations from a re-analysis of the deposited data

How the results depend on the processing

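The 46 marked genes became 48 with the authors' other pooled list and 47 with any overlap of peak and window. They became 26 with the stronger 50% of peaks, 27 without the upstream sequence, 31 to 32 with 1 replicate's own list, 99 in the ranked list that holds the conservative one, and 98 with replicate 1's ranked list and 97 with replicate 2's. The 31 lincRNA genes became 18 with the stronger 50% of peaks and 17 without upstream sequence (22 to 23 with 1 replicate). The 15 antisense RNA genes became 8 with the stronger 50% of peaks and 23 with 2000 bp upstream (8 to 10 with 1 replicate, 8 without replicate 1). The 12.3% of other nuclear genes became 7.83% with the stronger 50% of peaks, 8.05% without upstream sequence and 7.67% with 1000 bp upstream to 200 bp downstream (8.89 to 9.19% with 1 replicate). The 25 genes free of protein-coding promoter windows and coding exons became 14 with the stronger 50% of peaks and 14 with the window that ends 200 bp downstream (16 to 19 with 1 replicate, 16 without replicate 2). The 25 genes in both own lists became 15 without upstream sequence.

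The median position of 43 bp follows the window by construction. It was 208 bp with 500 bp upstream, -358 bp with 2000 bp upstream and 671 bp without upstream sequence. With the window that ends 200 bp downstream it was -363 bp. In the main window it also differed between lists. It was 172.5 bp with the stronger 50% of peaks and 76.5 to 166.5 bp with 1 replicate. Mean GC content at summits stayed within 53.6 to 55.2%: it was 54.1% with the other pooled list, 55.2% with the stronger 50% of peaks, 53.7% with 500 bp, 54.3% with 2000 bp and 54.7% with 0 bp upstream, 53.6% with the short window and 54.7% with 1 summit per merged region (54.1 to 54.2% with 1 replicate). The GA repeat share of 9.23% became 21.5% at 100 bp. Some shifts follow by construction, from the window or, for the counts of genes, from fewer peaks. No cause of the shifts was tested. No paired analysis was possible because there was 1 group. Depth is unknown, no control was analysed, and with 2 replicates each share rests on counts of genes.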
